A study of Drosophila melanogaster with 12 samples.

Results

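The effect of Hey RNAi in enteroblasts (EBs) was compared with its effect in whole guts of adult Drosophila melanogaster females. Subtracting the gut change from the EB change gave 1 difference of effects per transcript. It had an adjusted p under 0.05 in limma for 1713 of 15473 transcripts, and these 1713 were the members described here.

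Hey is a transcription factor of the HES family, a group of repressors best known as targets of Notch signalling. In the fly midgut, intestinal stem cells give rise to EBs, and an EB that has received a Notch signal matures into an enterocyte (EC), the large absorptive cell of the epithelium. Hey is made in progenitors as well as in mature ECs. A comparison of both knockdowns therefore asks which transcripts answer to the loss of 1 factor in the same way before and after this maturation step.

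The 12 arrays fell into 4 groups of 3. Control guts carried MyoIA-Gal4 and UAS-GFP, and Hey RNAi guts carried the same EC driver with UAS-Hey RNAi. Control EBs and Hey RNAi EBs carried Hey-Gal4 with UAS-GFP or UAS-Hey RNAi, plus a surface CD8-GFP by which the cells were bound to magnetic beads. All flies were raised at 18 °C, and females were collected at 2 to 4 days and later kept at 29 °C for 2 days. Gut flies were moved to 29 °C at 2 to 4 days. In guts the shift relieves the Gal80ts block on the driver. The sources used here do not name Gal80ts in the stocks for EB purification, so the onset of RNAi may differ between the tissues and cannot be told apart from the tissue. By the study's methods, flies for EB purification were aged at 18 °C for some days more before the shift. They were thus moved to 29 °C at a greater age than gut flies, and age cannot be told apart from the tissue. Replicates came from independent crosses.

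The groups had limits as models. Whole guts hold stem cells, EBs, enteroendocrine cells and muscle besides the ECs in which the driver is active. Hey-Gal4 is reported to be on mostly in EBs, with little activity in stem cells, and the purity of the EBs varied between preparations. In such bulk samples, fewer cells of a type and less RNA per cell cannot be told apart. Of the 15473 transcript identifiers, 9 could be matched to a gene symbol. The level of Hey itself and the marker genes of ECs, EBs and other cells were therefore not analysed here.

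EB arrays varied more than gut arrays. Median deposited intensities of the arrays ran from 490.5 to 877.6 units. Across transcripts, arrays of 1 group correlated at r = 0.985 to 0.991 in guts and at 0.932 to 0.966 in EBs. EBs had the larger pooled SD for 85.6% of transcripts, with a median ratio to guts of 2.18. For this reason the 6 EB and the 6 gut arrays were fitted separately in limma, and both standard errors (SE) were combined. The median SE was 0.35 log2 units for the EB effect, 0.16 for the gut effect and 0.4 for their difference, of whose square EBs contributed 82.2% in the median. The 95% interval of the difference reached 0.89 log2 units to either side in the median transcript. A change of 1 log2 unit is 2-fold.

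Hey RNAi had a different effect in EBs and guts for 11.1% of all transcripts (limma with a separate spread per tissue, two-sided, Benjamini-Hochberg adjusted p under 0.05). The change in EBs lay above the change in guts for 706 transcripts, 4.56% of all, and below it for 1007, 6.51% of all. The called differences ran from 0.85 to 7.33 log2 units with a median of 1.7, and 593 of them were at least 4-fold. The last transcript inside the threshold had a difference of 2.08 log2 units (SE 0.54, adjusted p = 0.04996) and the first outside it had 0.88 (SE 0.25, adjusted p = 0.05003). In 1664 of the 1713, none of the 9 single EB differences between a Hey RNAi and a control array overlapped the 9 single gut differences, compared with 21.3% of all transcripts. The members were chosen from these same arrays, so this describes them and adds no support.

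The number of calls rested on single EB arrays. It was 1140 without control EB 1, 528 without control EB 2, 573 without control EB 3 and 553 with Hey RNAi EB 3 left out, and lay between 1386 and 1862 without any 1 of the other 8 arrays. Same-numbered EB arrays deviated together, and with the replicate number as a block in the EB fit 2804 differences were called, 1667 of the 1713 among them. The split also moved with the scaling. Differences with the higher change in EBs made up 41.2% of the calls here, 30.9% (279 of 904) when each array was centred on its median, and 53.4% (1050 of 1967) in the deposited values with a replicate block.

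To sort the members, a change within 1 tissue was called at an adjusted p under 0.05 and at least 2-fold. By this rule 1250 transcripts changed in EBs, 8.08% of all (554 rose, 3.58%, and 696 fell, 4.5%). In guts 1016 changed, 6.57% of all (500 rose, 3.23%, and 516 fell, 3.33%). Of the 1713 members, 799 were called in EBs and not in guts, 226 in guts and not in EBs, 43 in both with the same direction and 18 in both with opposite directions. The remaining 627 were called in neither tissue. A change in 1 tissue alone means here that the other tissue missed the adjusted p or the 2-fold limit, not that its effect was 0. The other tissue's change may still have had an adjusted p under 0.05 where it was under 2-fold. Over all transcripts, 1.16% were called in both. Both the difference and the classes come from the same arrays, so values of members within a class are a description.

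**Figure D1:**
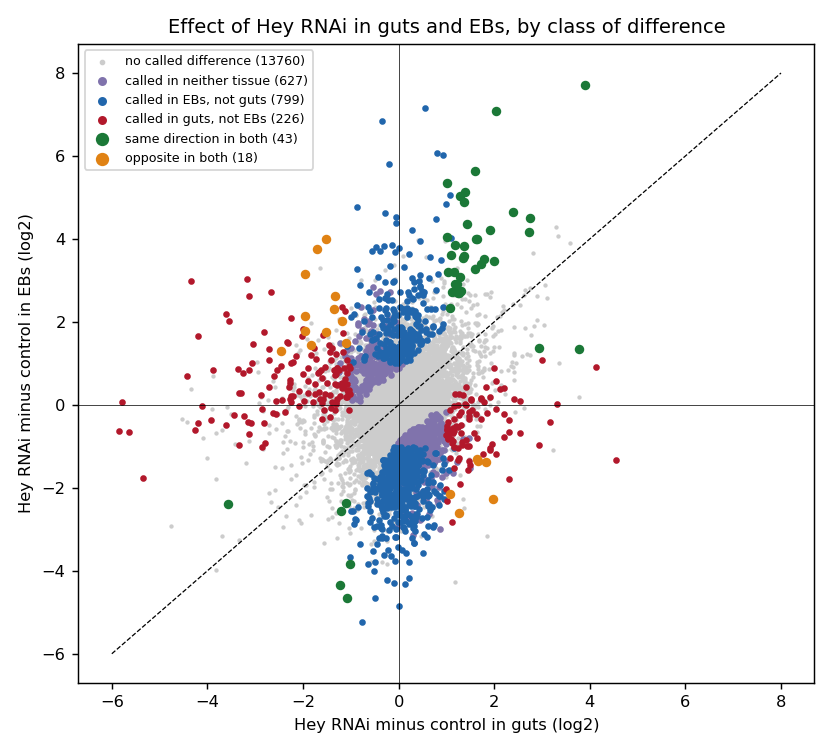
Each point is 1 transcript, with the change in guts (Hey RNAi minus control, log2, mean of 3 arrays against 3) on the horizontal axis and the same change in EBs on the vertical axis. Colours mark the classes of the 1713 called differences, grey points are the other 13760 transcripts, and on the dashed line both effects are equal. The 799 members called in EBs alone form a vertical band, and the 18 opposite members lie in the upper left and lower right corners.

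Transcripts that changed in EBs alone made up 46.6% of the members, and falls outnumbered rises by 527 to 272. The falling members changed by a median of -1.84 log2 units in EBs (range -5.23 to -1.01) and by 0.02 in guts. The rising members changed by a median of 1.73 in EBs (1.01 to 7.16) and by 0.06 in guts. Each array was also set against the control mean of its own tissue. On this scale the median falling member stood at -1.85, -1.68 and -1.93 in Hey RNAi EBs 1 to 3 and between -0.11 and 0.16 in the control EBs. In the 6 gut arrays it stood between -0.03 and 0.06. The median rising member stood at 1.72, 1.72 and 1.7 in Hey RNAi EBs and between -0.03 and 0.07 in all other arrays. Hey RNAi EBs lay apart from the other 3 groups on this scale, which the rule for the class sets in advance.

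For most of these transcripts the gut data bound the gut effect. The 95% interval of the gut change lay within 1 log2 unit of 0 for 690 of the 799, and the estimate was under 0.5 log2 units for 665. Its sign was that of the EB change in 400 and the opposite in 399. The class held 180 members without control EB 1, 116 without control EB 2, 109 without control EB 3, 470 without Hey RNAi EB 2 and 92 with Hey RNAi EB 3 left out.

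An example is FBtr0072518, which had the largest difference among falling transcripts of this class that met the limits on level and replicates. Its log2 intensity was 9.39, 9.6 and 10.17 in control guts and 9.79, 9.81 and 9.94 in Hey RNAi guts. In control EBs it was 11.18, 11.92 and 11.72, and in Hey RNAi EBs 5.41, 9.48 and 6.97. All 3 Hey RNAi EB arrays lay below the controls, but they spread over more than the whole range of the other 9 arrays. The EB change was -4.32 (SE 0.96), the gut change 0.13 (SE 0.21), and the difference -4.45 (SE 0.98, 95% interval -6.77 to -2.13, adjusted p = 0.0332 in limma). The call was lost without control EB 1, 2 or 3 or Hey RNAi EB 3, with adjusted p from 0.0797 to 0.109.

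Members that changed in guts alone were fewer, 226, or 13.2% of the 1713, and 134 fell while 92 rose. The falling members changed by a median of -1.93 log2 units in guts (range -5.85 to -1.01) and by 0.5 in EBs. By array, the median falling member stood at -1.96, -1.97 and -1.88 in Hey RNAi guts and at 0.46, 0.51 and 0.6 in Hey RNAi EBs. Control EBs stood at 0.41, -0.27 and 0.01, so the 3 Hey RNAi EB arrays lay above all 3 controls by a small margin. The rising members changed by a median of 1.42 in guts (1 to 4.54) and by -0.6 in EBs.

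The EB effect of these transcripts was bounded less well than the gut effect of the former class. The 95% interval of the EB change lay within 1 log2 unit of 0 for 48 of the 226. The EB estimate had the sign opposite to the gut change in 176 and the same sign in 50, a split that is partly set by the requirement of a called difference. The class held 113 members without control EB 2, 112 without control EB 3 and 114 with Hey RNAi EB 3 left out, and 342 with the replicate number as a block in both tissues.

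The transcripts that fell in guts alone started from unequal levels. Their median log2 intensity was 11.51 in control guts and 9.01 in Hey RNAi guts, against 8.16 in control EBs and 9.07 in Hey RNAi EBs. In 90 of the 134 (67.2%), control EBs already stood at or below the level of Hey RNAi guts. Of all 516 transcripts called as falling in guts, 63.2% had this order. Control EBs stood below the lowest 20% limit of all group means in 27 of the 134 (20.1%), next to 9.3% of all falls in guts. Whether a fall in EBs could be measured at such levels was not tested. Among transcripts that fell in EBs alone, control guts stood at or below Hey RNAi EBs in 73 of 527 (13.9%), next to 13.8% of all 696 falls in EBs. For rises, the share in which the other tissue's control stood at or above the end level was 35.9% for transcripts that rose in guts alone, next to 30.6% of all rises in guts, and 14.3% for those that rose in EBs alone, next to 11.4% of all rises in EBs.

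The largest difference among gut-only falls that met the limits on level and replicates belonged to FBtr0087646. Its log2 intensity was 11.77, 11.47 and 11.58 in control guts and 8.31, 8.76 and 8.26 in Hey RNAi guts. In control EBs it was 9.51, 5.45 and 9.31, and in Hey RNAi EBs 12.1, 10.27 and 11. Neither pair of groups overlapped, and control EB 2 lay far below the other control EBs. Of all transcripts, 42.5% had no overlap between the gut groups and 34.7% none between the EB groups. The gut change was -3.17 (SE 0.17, adjusted p = 0.000216) and the EB change 3.03 (SE 1.13, adjusted p = 0.147), with a difference of 6.2 (SE 1.14, 95% interval 3.48 to 8.91, adjusted p = 0.021 in limma). The difference missed the threshold without control EB 3, Hey RNAi EB 1 or Hey RNAi EB 3, with adjusted p from 0.0505 to 0.0703.

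Changes in the same direction in both tissues were called for 161 transcripts, 121 that rose and 40 that fell. The effects differed in 43 of them, 40 with the stronger change in EBs and 3 with the stronger change in guts. Of the 43, 37 rose in both tissues, by a median of 3.6 log2 units in EBs and 1.37 in guts, and 6 fell, by medians of -3.2 and -1.15. The 37 rising members stood by median at 1.39, 1.29 and 1.49 in Hey RNAi guts and at 3.57, 3.76 and 3.6 in Hey RNAi EBs. Every Hey RNAi EB array stood above every Hey RNAi gut array on this scale. The choice of members largely sets this, since 35 of the 37 were classed as stronger in EBs. The class held 26 members without control EB 2, 21 without control EB 3 and 24 with Hey RNAi EB 3 left out.

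For the other 118 transcripts called in the same direction no difference was called. The 95% interval of the difference lay within 1 log2 unit of 0 for 33 of them, and so held no difference of 2-fold or more. For 85 the interval reached past 1, and a missed threshold does not show that the effects were alike. Over the whole array, the interval lay within 1 log2 unit for 2811 transcripts, 18.2%, and for 1866 without control EB 2, 1509 without control EB 3 and 1813 with Hey RNAi EB 3 left out.

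FBtr0079154 had the largest difference among transcripts that rose in both tissues and met the limits on level and replicates. Its log2 intensity was 6.61, 6.87 and 7.09 in control guts, 8.51, 8.61 and 8.22 in Hey RNAi guts, 7.83, 9.01 and 8.22 in control EBs and 13.74, 14.11 and 14.1 in Hey RNAi EBs. Hey RNAi EBs stood far above the other 9 arrays, and Hey RNAi guts did not exceed the range of control EBs. The rise was 5.63 (SE 0.35) in EBs and 1.59 (SE 0.17) in guts, with a difference of 4.04 (SE 0.39, 95% interval 3.17 to 4.91, adjusted p = 0.000747 in limma). This call was kept without any 1 of the 12 arrays.

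Opposite changes were called for 18 transcripts. Of these, 12 rose in EBs, by 1.29 to 3.99 log2 units (median 2.08), and fell in guts, with changes of -2.47 to -1.1 (median -1.61). The other 6 fell in EBs (-2.6 to -1.31) and rose in guts (1.07 to 1.97). The 12 stood by median at 1.89, 2.1 and 2.35 in Hey RNAi EBs and at -1.61, -1.67 and -1.71 in Hey RNAi guts. Control EBs ranged from -0.42 to 0.49 and control guts from -0.05 to 0.06. The difference itself stayed called in 18 of 18 without any 1 of the 12 arrays, next to 384 of all 1713. The class rule favours this, since 2 called changes in opposite directions make a large difference (at least 2.59 log2 units here). The call in EBs did not, and the class held 7 members without control EB 1, 4 without control EB 2, 2 without control EB 3, 7 without Hey RNAi EB 2 and 1 with Hey RNAi EB 3 left out.

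FBtr0100095 had the largest difference of the opposite class with a rise in EBs. Its log2 intensity was 13.62, 14.1 and 14.02 in control guts, 12.51, 12.59 and 12.07 in Hey RNAi guts, 8.11, 6.34 and 5.86 in control EBs and 10.4, 10.55 and 11.35 in Hey RNAi EBs. It was a bright gut transcript that was dim in control EBs, and the 4 groups did not overlap. The change was 3.99 (SE 0.62, adjusted p = 0.0202) in EBs and -1.52 (SE 0.19, adjusted p = 0.00404) in guts, and the difference 5.52 (SE 0.65, 95% interval 4.02 to 7.01, adjusted p = 0.00343 in limma). The gap between EBs and guts shrank from -7.14 in controls to -1.62 in Hey RNAi arrays.

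**Figure D2:**
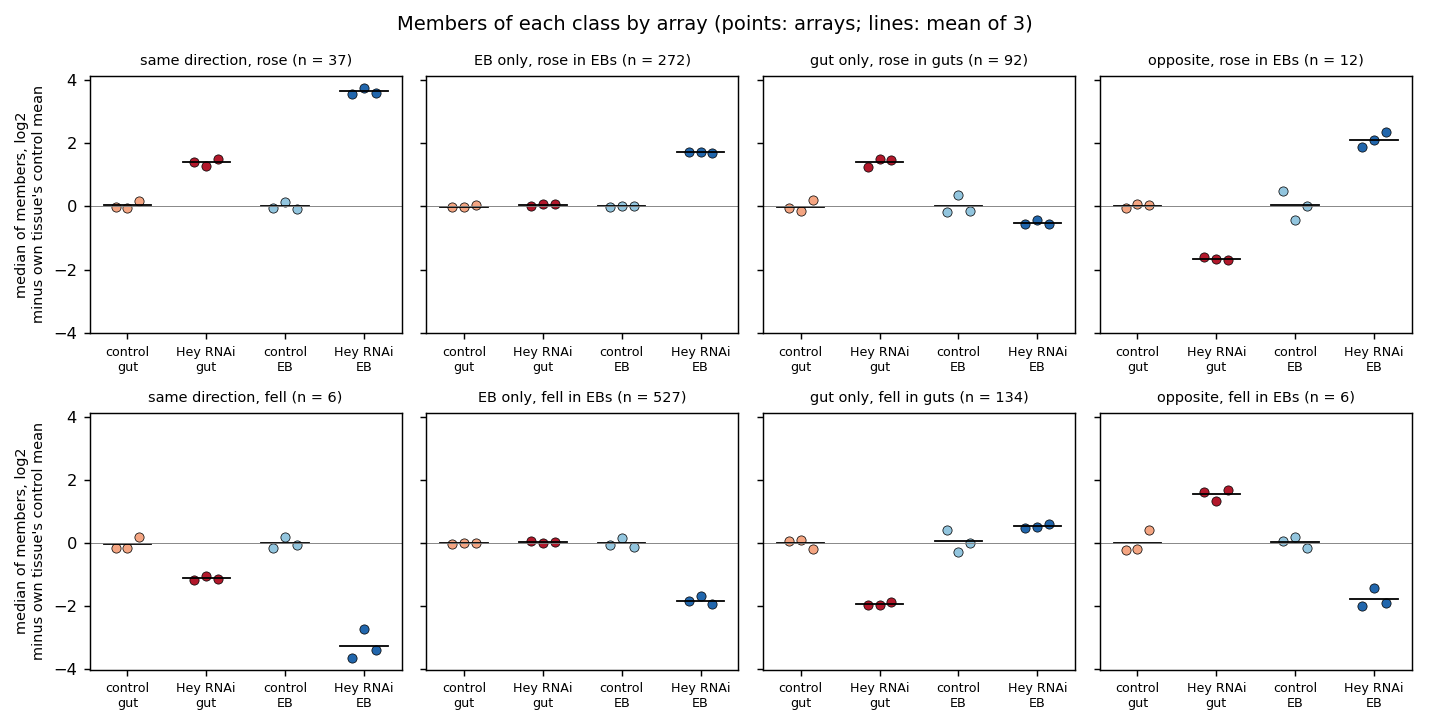
Each panel shows 1 class and direction, with the 4 groups on the horizontal axis and the median of the members' log2 intensity minus the mean of the own tissue's controls on the vertical axis. Points are the 12 arrays and lines the mean of 3. Transcripts that fell in EBs alone stand near -1.85 in Hey RNAi EBs and near 0 elsewhere, whereas the 12 opposite members stand near -1.61 in Hey RNAi guts and near 2.1 in Hey RNAi EBs.

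The 627 members called in neither tissue had estimates of mostly opposite sign, as the rule favours, with a median size of 0.99 log2 units in EBs and 0.44 in guts. The EB estimate was at least 2-fold in 305 of them. In 249 the EB estimate was positive and the gut estimate negative, in 363 the reverse, and in 15 both had 1 sign. The gut change had an adjusted p under 0.05 but stayed under 2-fold in 190, and the EB change had an adjusted p under 0.05 in 16. In 423 the adjusted p was over 0.05 in both tissues. With the replicate number as a block in EBs this class held 1510 transcripts. It held 269 without control EB 2, 329 without control EB 3 and 322 with Hey RNAi EB 3 left out.

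Calls within a tissue can also be sorted by whether the effects differed. Of 1250 transcripts changed in EBs, 390 (31.2%) had no called difference. Of 1016 changed in guts, 729 (71.8%) had none. Among EB calls the share without a called difference was 42.1% of rises (233 of 554) and 22.6% of falls (157 of 696). In guts it was 73% of rises and 70.5% of falls. Whether these shares differ was not tested. The median SE was 0.16 log2 units for the gut effect, 0.35 for the EB effect and 0.4 for the difference. A gut change could therefore pass its own test and be too small for a called difference. A missing call does not show that the effects were alike. The interval of the difference lay within 1 log2 unit of 0 for 42 of the 1250 EB calls and 52 of the 1016 gut calls. The count of transcripts changed in EBs fell from 1250 to 268 without control EB 1, 195 without control EB 2, 167 without control EB 3, 625 without Hey RNAi EB 2 and 145 with Hey RNAi EB 3 left out.

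The same contrast can be read as a change of the gap between EBs and guts. In 1013 of the 1713 members (59.1%) the sign of the gap turned between control and Hey RNAi arrays, in 376 it widened and in 324 it narrowed, compared with 28.3% turned over all transcripts. Members were picked by this same change of the gap, so their higher share is set in part by that choice. The number that turned was 336 without control EB 2, 392 without control EB 3 and 350 with Hey RNAi EB 3 left out, and 1533 with the replicate number as a block in EBs. For transcripts that fell in guts alone the median size of the gap went from 2.76 to 0.88 log2 units, and it narrowed in 71, turned in 57 and widened in 6 of 134. For those stronger in EBs in the same direction it went from 0.82 to 2.04. In the opposite class it went from 3.3 to 1.01.

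**Figure D3:**
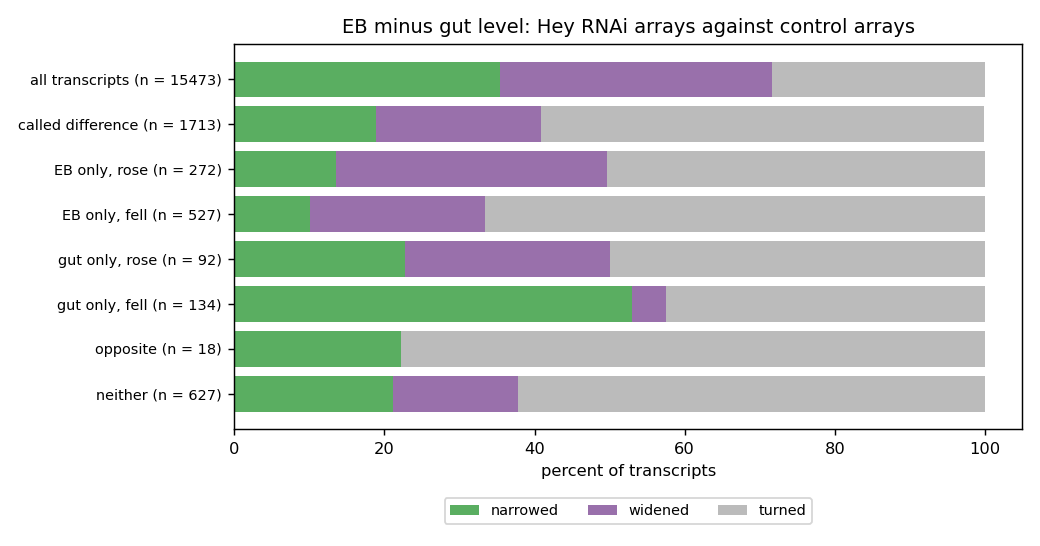
Bars give the percent of transcripts whose EB minus gut log2 level had the same sign and a smaller size (narrowed), the same sign and a larger size (widened) or another sign (turned) in Hey RNAi arrays compared with control arrays. Among all transcripts 28.3% turned, and among the 1713 members, which were picked by the change of this gap, 59.1% did. Gut-only falls narrowed in 53%.

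Members were found at all levels. With transcripts ranked by their mean over the 12 arrays and cut into 5 bins of equal size, 7.85%, 10.1%, 13.5%, 14% and 9.98% had a called difference from the dimmest bin to the brightest. In the brightest bin 240 differences had the lower change in EBs and 69 the higher, and in the dimmest bin the counts were 138 and 105. The split over all calls moved with the scaling, and whether the split by bin does so was not tested. The median SE of the difference was 0.44 in the dimmest bin and 0.29 in the brightest.

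Among the 9 transcripts with a symbol, 1 had a called difference. It was Uba1, which encodes the enzyme that activates ubiquitin in the first step of its attachment to proteins. Its log2 intensity was 12.97, 12.98 and 13.12 in control guts and 13.74, 13.96 and 13.9 in Hey RNAi guts. In control EBs it was 13.48, 14.11 and 13.82, and in Hey RNAi EBs 12.75, 13.51 and 13.11. The gut groups did not overlap, and in EBs 1 Hey RNAi array lay within the control range. The gut change was 0.84 (SE 0.11, adjusted p = 0.00496), below 2-fold, and the EB change -0.68 (SE 0.3, adjusted p = 0.205). The difference was -1.52 (SE 0.32, 95% interval -2.25 to -0.79, adjusted p = 0.0231 in limma), and it missed the threshold without control EB 2, control EB 3 or Hey RNAi EB 3 (adjusted p 0.0836 to 0.0892).

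Wdr24 and LanA lay just outside the threshold. Wdr24 encodes a subunit of GATOR2, a complex that passes amino acid supply on to the TORC1 growth kinase. It stood at 10.96, 11.09 and 10.91 in control guts, 10.68, 10.87 and 10.78 in Hey RNAi guts, 11.63, 11.96 and 11.3 in control EBs and 10.55, 10.46 and 10.09 in Hey RNAi EBs. Hey RNAi EBs lay below the controls. The EB change was -1.26 log2 units (SE 0.27, adjusted p = 0.0425), the gut estimate was -0.21, and the difference was -1.05 (SE 0.3, adjusted p = 0.0542 in limma). The call depended on the processing. The difference passed without control gut 2 (adjusted p = 0.0486), with a replicate block in EBs (0.0272) and in 7 more of the 12 other settings, and over these 12 the adjusted p ran from 0.0248 to 0.194.

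LanA encodes a laminin alpha chain of the basement membrane that lies under the epithelium. It stood at 11.35, 11.1 and 11.83 in control guts, 10.82, 11.29 and 11.2 in Hey RNAi guts, 14.24, 14.29 and 14.14 in control EBs and 13.11, 12.9 and 12.74 in Hey RNAi EBs. Every EB array exceeded every gut array, and Hey RNAi EBs lay below their controls. The EB change of LanA was -1.31 log2 units (SE 0.22, adjusted p = 0.0231), the gut estimate was -0.32, and the difference was -0.99 (SE 0.31, 95% interval -1.65 to -0.32, adjusted p = 0.0568 in limma). The difference passed without control gut 3 (adjusted p = 0.0228), without Hey RNAi gut 1 (0.0463), with a replicate block in EBs (0.0424) and in 4 more of the 12 other settings, over which the adjusted p ran from 0.0181 to 0.159.

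The other 6 transcripts with a symbol had no called difference. For sle, which encodes a nuclear protein, the rise in guts was 1.03 log2 units (adjusted p = 0.0024), from 10.57, 10.65 and 10.79 to 11.75, 11.62 and 11.71. In EBs sle stood at 12, 12.36 and 12.84 in controls and 12.73, 13.13 and 12.77 in Hey RNAi arrays, a change of 0.48 (adjusted p = 0.345), and the difference was -0.55 (95% interval -1.27 to 0.17, adjusted p = 0.285 in limma). The interval allows equal effects and a 2-fold difference alike.

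For kis, a chromatin remodeller of the CHD family, the difference was -0.95 (SE 0.44, adjusted p = 0.195 in limma, and 0.0492 with a replicate block in EBs). For mio, another GATOR2 subunit, it was -0.27 (95% interval -1.1 to 0.56), and for Dyrk3, a protein kinase, 0.54 (-0.28 to 1.36). For alpha-Spec, the alpha chain of the spectrin membrane skeleton, it was 0.17 (-0.49 to 0.83), with the sign turned when arrays were centred on their median and in the deposited values. For the histone H4 gene His4r it was 0.27 (-0.99 to 1.53), and whether its probes tell it apart from the other H4 genes was not tested. No effect in either tissue passed for these 5 transcripts. Of 8 gene lists drawn up for the gut, 2 held a matched gene: mio and Wdr24 of 16 TORC1 and GATOR genes and LanA of 7 basement membrane genes, with no called difference among them.

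**Figure D4:**
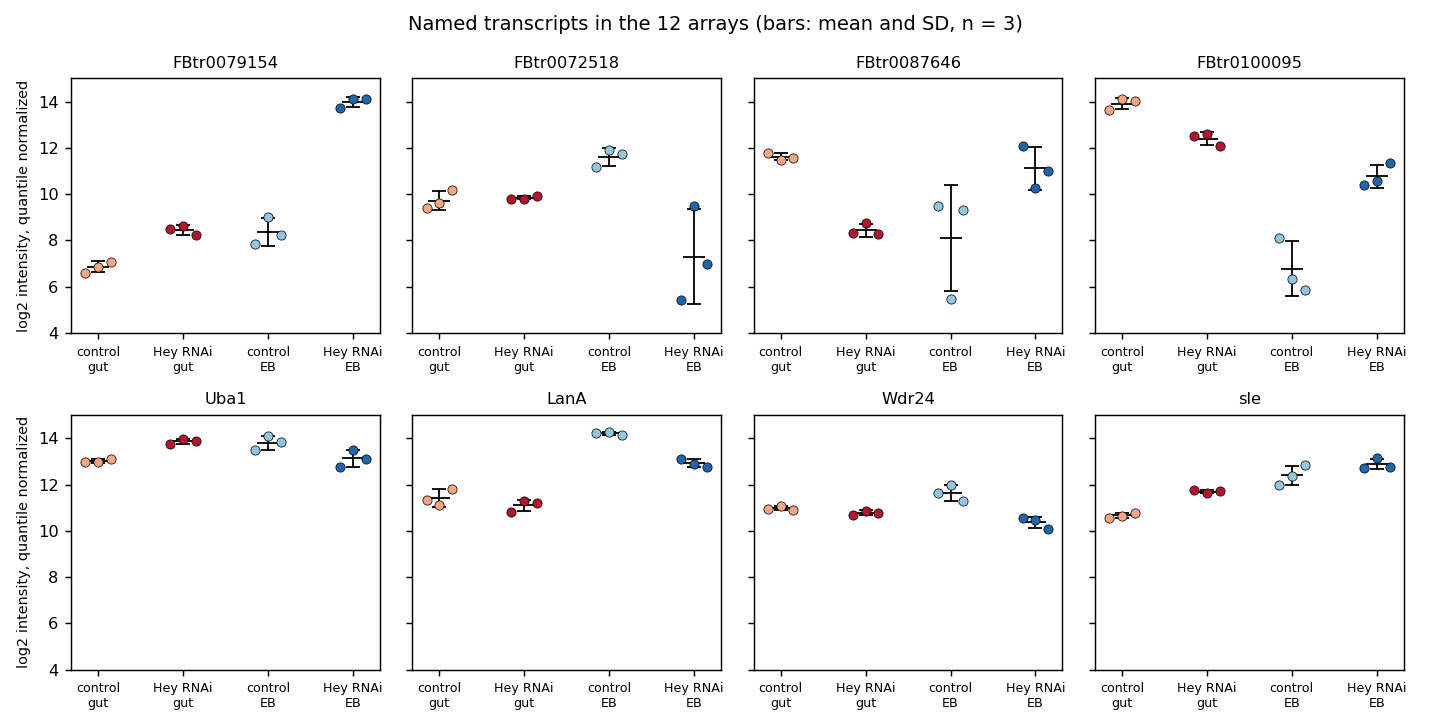
Log2 intensity (quantile normalized) of 8 transcripts in the 4 groups. Points are arrays, and bars give the mean and SD of 3. In FBtr0100095 the groups lie at 4 separate levels, in Uba1 guts rise to about the level of control EBs, and in LanA both EB groups lie above both gut groups.

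How many calls survived other ways of processing differed between classes. A call at every 1 of the 12 left-out arrays, under the 3 other normalizations and under the 4 other estimates of the spread was kept by 284 of the 1713 differences, 125 with the higher change in EBs and 159 with the lower. These 284 held 17 of the 18 opposite members, 19 of the 43 with the same direction, 195 of the 799 called in EBs alone, 49 of the 226 called in guts alone and 4 of the 627 called in neither tissue. Only the called difference and its sign had to be kept, not the class, which is that of the main fit. The EB-only class itself held 92 members with Hey RNAi EB 3 left out. The class rules partly set these counts. The smallest difference was 2.59 log2 units in the opposite class and 0.87 among members called in neither tissue.

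**Figure D5:**
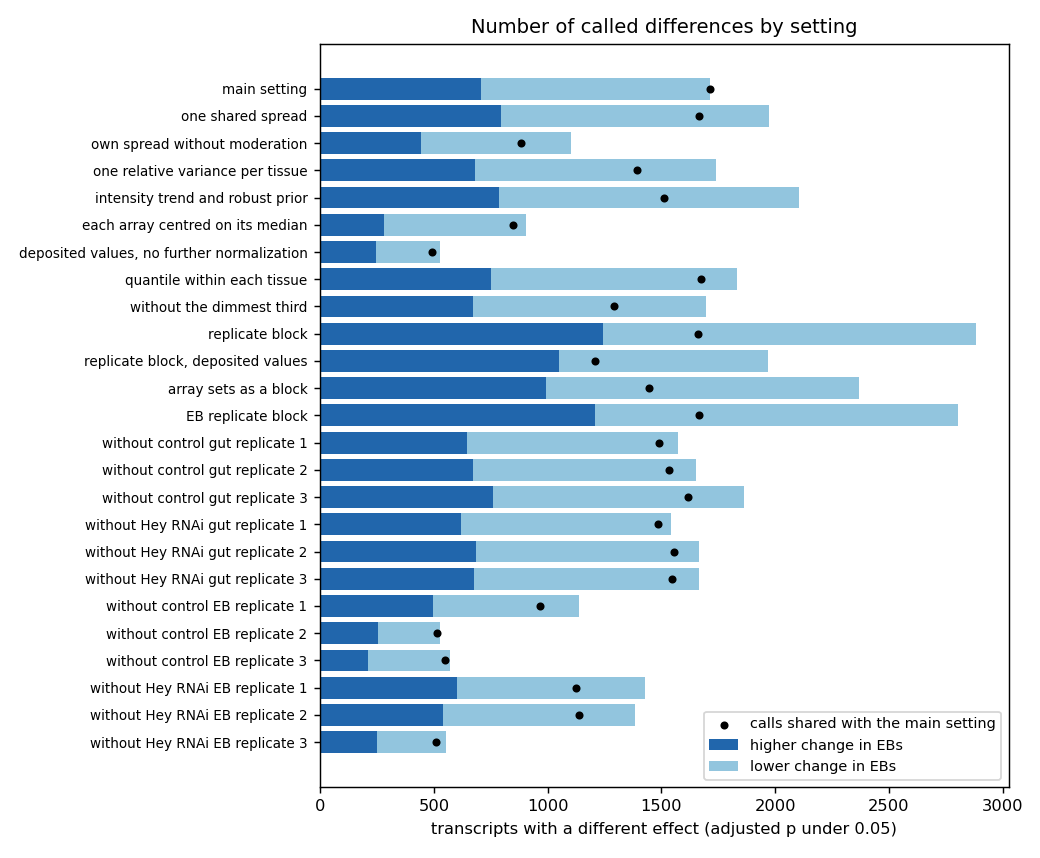
Bars give the number of transcripts with a called difference under each setting, split by direction, and black points the number shared with the 1713 of the top bar. The bars run from 525 in the deposited values without further normalization to 2882 with a replicate block, and are short without control EB 2, control EB 3 or Hey RNAi EB 3 (528, 573 and 553).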

How the data were processed

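Whole guts or purified EBs gave RNA for 12 NimbleGen 1-colour expression arrays (amplification, then Cy3 labelling). Per the study's methods, the authors used NimbleScan at its defaults to extract signals and ArrayStar to normalize them. The submitters' processing notes list RMA. The deposited table gives an intensity, on a linear scale, for each transcript on each array. Whether these intensities are before or after normalization is not given in the sources used here. The authors' workbooks of fold changes and p-values were not used.

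Intensities were taken to log2 and quantile normalized over all 12 arrays, which gives both tissues 1 distribution and can hide a change shared by most transcripts. limma 3.58.1 in R 4.3.3 was fitted to the 6 arrays of each tissue (lmFit, eBayes, 4 residual degrees of freedom). Moderated variances of both fits were combined into 1 SE with Satterthwaite degrees of freedom (6.59 to 13.3). Tests were two-sided and adjusted by Benjamini-Hochberg over all 15473 transcripts, with no filter on level. Intervals are unadjusted. The script was tested on simulated data. Precision is limited by 3 arrays per group.

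Transcripts named are all 9 paired with 1 symbol in the RefSeq gene table, plus 4 identifiers, the largest difference of 4 classes among transcripts with every group mean above the lowest 20% of all group means (6.26 on the log2 scale) and no overlap of replicates where called. The members, lists and tests were chosen with earlier results of these data known. Replicate numbers were taken to pair arrays where same-numbered arrays of a tissue deviate together from their group means with r over 0.1. They did in EBs (0.183, 0.321 and 0.127) and not throughout in guts (0.168, 0.00482 and 0.256). Alternatives covered the spread, the normalization, dim transcripts, fold limits, blocks and each left-out array.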

Additional observations from a re-analysis of the deposited data

Results flagged for a closer look

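Results are listed here because a test of the difference itself found unlike effects of Hey RNAi in EBs and guts. This held for 1713 transcripts, and for these named ones, each as the EB change minus the gut change in log2 units (limma, separate spread per tissue). FBtr0079154, which rose in both tissues, had a difference of 4.04. FBtr0072518, which fell in EBs alone, had -4.45, and its Hey RNAi EB arrays spread with an SD of 2.05 against 0.38 in control EBs. FBtr0087646, which fell in guts alone, had 6.2, with an SD of 2.29 among control EBs. FBtr0100095, with opposite changes, had 5.52. Uba1, called in neither tissue, had -1.52.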

How the results depend on the processing

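FBtr0079154 and FBtr0100095 kept their calls under every alternative run. The call of FBtr0072518, FBtr0087646 and Uba1 was lost with each tissue's own spread without moderation (adjusted p 0.119, 0.091 and 0.058 in limma). Of the 13 other settings for the count of differences, 8 gave within 1.5 times 1713. The exceptions were 1103 with unmoderated spreads, 904 with arrays centred on their median, 525 in the deposited values, 2882 with a replicate block in both tissues and 2804 with a replicate block in EBs, the last chosen after seeing the data. In gut arrays the correlations did not show that the numbers pair samples. By mean deposited intensity, though, same-numbered gut arrays lay in 1 set for all 3 numbers (means agree within 0.43%), as did EB arrays 1 and 2, while both EB arrays numbered 3 lay in different sets. On quantile normalized values the replicate block, in EBs or in both tissues, changed no other call of a named transcript than those of kis, LanA and Wdr24. The difference of Wdr24 also passed with 1 shared spread (adjusted p 0.0352 in limma), 1 relative variance per tissue (0.0345) and an intensity trend with a robust prior (0.0393). It passed too with quantile normalization within tissues (0.0475 in limma), array sets as a block (0.0248) and without the dimmest transcripts (0.0362). The difference of LanA passed with an intensity trend and robust prior (0.0181 in limma), median centring (0.0442) and without the dimmest transcripts (0.0339). With 1 spread shared by all arrays, EB calls rose to 2625, gut calls fell to 480 and EB-only members rose to 1229. With unmoderated spreads there were 415 EB calls, 622 gut calls and 21 same-direction, 292 EB-only, 80 gut-only and 2 opposite members, and the gap turned in 638. Median centring, which moved the median difference of all transcripts to -0.21, gave 528 EB calls, 22 same-direction, 345 EB-only and 359 neither members, 557 turned gaps and 737 intervals within 1 log2 unit. The deposited values gave 389 EB calls, 10 same-direction, 226 EB-only, 110 gut-only, 6 opposite and 173 neither members, 321 turned gaps and 296 intervals within 1 log2 unit. The replicate block gave 342 gut-only and 1552 neither members and 1559 turned gaps, and in EBs alone 1510 and 1533. With deposited values besides, it gave 388 gut-only members and 1207 intervals. Sets of arrays with like mean intensity were used as a block in a joint fit with 1 relative variance per tissue. This gave 2192 EB calls, 1328 EB-only and 35 opposite members. The joint fit without the block gave 1728, 1011 and 20. Without the 2-fold limit there were 93 same-direction, 414 gut-only and 57 opposite members. The difference of alpha-Spec turned to -0.3 with median centring, to -0.09 in the deposited values with and without a replicate block, and to -0.01 without Hey RNAi EB 1 (-0.01 to 0.3 over left-out arrays). That of His4r turned to -0.13 without control EB 1 (-0.13 to 0.72). Leaving out 1 array gave 528 to 1862 differences, 145 to 1266 EB calls, 843 to 1199 gut calls, 21 to 44 same-direction, 92 to 800 EB-only, 112 to 285 gut-only, 1 to 23 opposite and 269 to 714 neither members, 1509 to 2759 intervals within 1 log2 unit and 336 to 1106 turned gaps. The causes were not tested. With 3 arrays a group and the EB spread, differences under about 0.85 log2 units were not called.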
